A study of Rattus norvegicus with 5 samples.

Results

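The mitochondrial ribosomal protein genes were taken as the gene symbols that start with Mrpl or Mrps followed by a digit and that had a value above 0 in at least 1 library. This gave 69 genes on 70 of the 17048 rows, since Mrpl1 stood on 2 rows, of which the higher was used. RNA had been measured in cultures of rat smooth muscle, the contractile cell type of the vessel wall, in 5 libraries, each the only library of its condition. The conditions were In-Cl at 0.1 µM with hypoxia, DPN at 0.1 µM with hypoxia, E2 at 10 nM with hypoxia, hypoxia alone and a control, and hypoxia lasted 24 h in the 4 libraries that had it. Each compound was given ahead of the hypoxia. E2 is estradiol, DPN a diarylpropionitrile with a preference for estrogen receptor beta, and In-Cl an indazole ligand, and the series title places the study around the induction of cyclooxygenase-2. No genotype, strain, age or number of animals is given for the cultures.

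Mitochondria carry their own ribosome, which translates the few proteins that mitochondrial DNA encodes, all of them subunits of the respiratory chain or the ATP synthase. Its RNAs come from mitochondrial DNA, but every protein of its large (Mrpl) and small (Mrps) subunit is encoded in the nucleus, made in the cytosol and imported. Some of these proteins descend from the bacterial ribosome, and others were added in the mitochondrial lineage. In smooth muscle, as in other cells, the output of this ribosome bears on how much respiratory chain can be assembled. The names do not always follow the structure, because the products of Mrps18a and Mrps30 sit in the large subunit and that of Mrps36 belongs to the 2-oxoglutarate dehydrogenase complex. By structure the 69 genes divided into 43 of the large subunit, 25 of the small subunit and Mrps36.

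Values are adjusted read counts, the deposited log2 values turned back to a linear scale. A difference is always one of log2 values with a pseudocount of 1, and intervals cover counting error only. The libraries summed to between 20663687 and 22837695 adjusted reads. The members' means ran from 101 to 2613 adjusted reads, and 61 of the 69 were among the 6699 rows with a mean of at least 310.5, the upper 50% of the 13397 detected rows, which serve as the rows tested. All 8 smooth muscle markers were detected. Together they had 256573 adjusted reads with In-Cl, 279359 with DPN, 330752 with E2 and 351433 in hypoxia, against 297929 in the control. Most of these came from Acta2, Tagln and Tpm2, at 0.35, 0.08 and 0.27 in hypoxia against control. Myl9 (0.46), Myh11 (0.14) and Des (2.63, with a mean of 22.6 adjusted reads) were also higher, while Smtn (-0.99) and Cnn1 (-0.105) were lower. Endothelial markers summed to 260 to 460 adjusted reads (3 of 5 detected, Cdh5 and Kdr not), leukocyte markers to 184 to 238 (3 of 5, Cd3e and Adgre1 not), epithelial markers to 217 to 563, adipocyte markers to 1 to 4 (Adipoq not detected) and erythroid markers to 0 or 1 (Hba-a1 not detected). Tek, Cd14 and Krt8 gave most of the endothelial, leukocyte and epithelial sums. The 4 fibroblast markers summed to 228890 to 285563 adjusted reads, nearly all of them from the collagen gene Col1a1. In hypoxia against control Lum was at -1.04, while Col1a1 (0.32), Pdgfra (0.41) and Dcn (0.58) lay above 0. The part of these shifts in the results below was not tested, and in bulk RNA fewer cells of a type and less RNA per cell cannot be told apart.

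Hypoxia against control asks whether 24 h of low oxygen goes with another level of the mitochondrial ribosomal protein genes. Most of them were lower in hypoxia, by modest amounts, and both subunits had a median below 0. The median difference over the 61 members among the rows tested was -0.21, with quartiles at -0.39 and -0.065, against a median of -0.045 over all rows tested. At 1.2-fold, 22 of the 61 (36.1%) were lower and 1 (1.6%) was higher, while over all rows tested 21.9% were lower and 15.7% were higher. The 8 members under the level cut, Mrpl2, Mrpl19, Mrpl34, Mrpl46, Mrpl47, Mrpl50, Mrps10 and Mrps28, were all lower by at least 1.2-fold, with differences from -0.73 to -0.30, where 27.4% of the 2173 rows under the cut with a mean of at least 100 were. Of the 61, 49 (80.3%) lay below 0, against 56.2% of all rows tested. The counting interval lay wholly below 0 for 36 of them and wholly above 0 for 5, where it did so for 39% and 28.8% of all rows tested. The 69 genes together had 43225 adjusted reads in hypoxia and 49695 in the control. As shares of the library sums these were 0.1893% and 0.2405%. Such shares amount to scaling libraries to the same sum, which put the median of all rows tested at -0.19. None of the 69 differed by 2-fold.

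**Figure D1:**
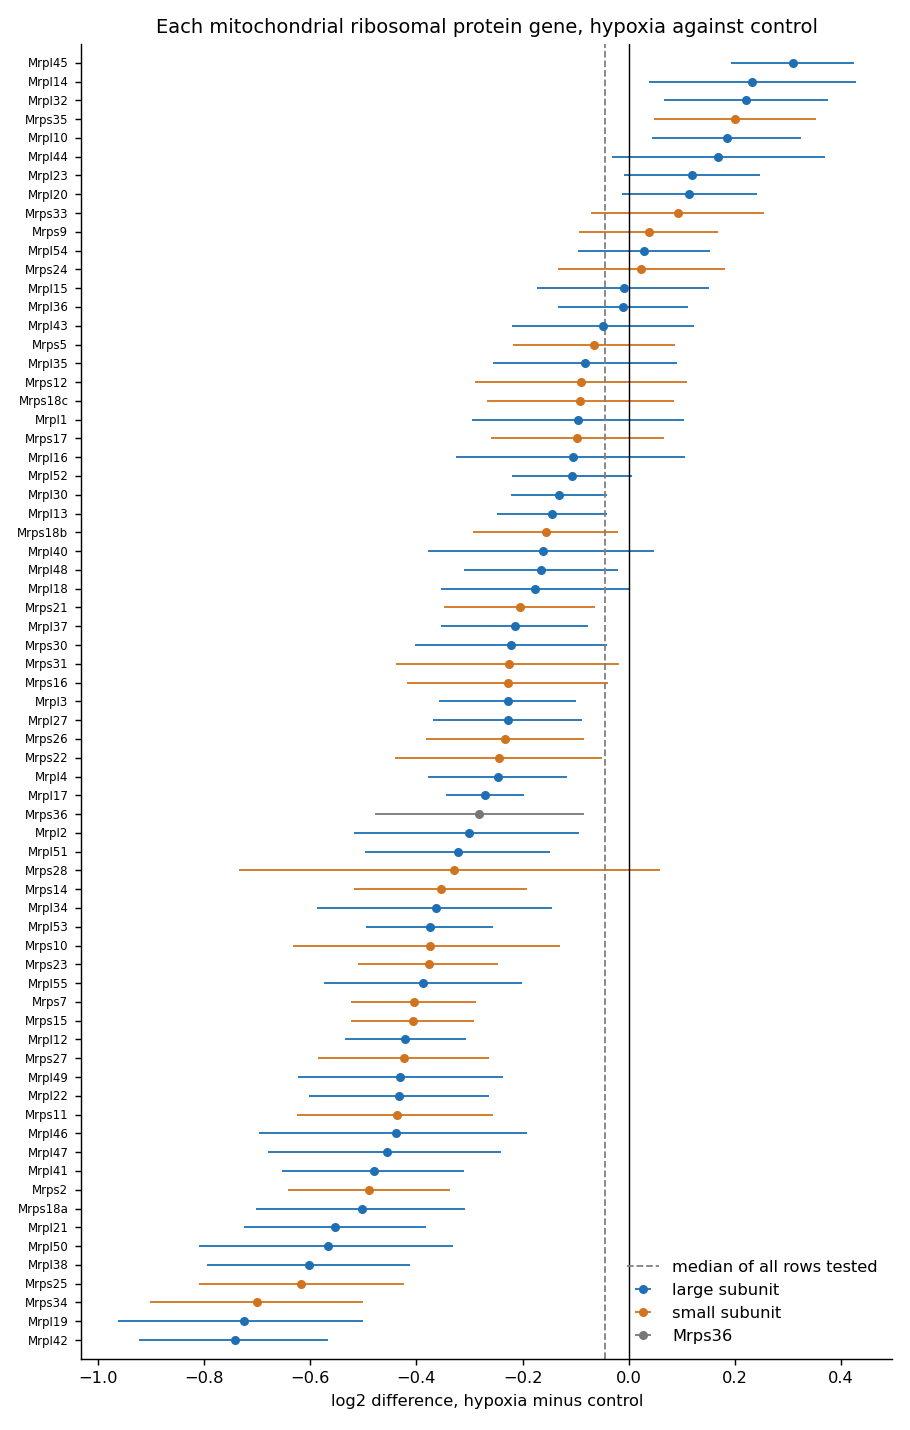
Each dot is 1 of the 69 genes, placed by its log2 difference of hypoxia minus control, with the counting interval as a bar and colour for the subunit; the dashed line is the median of all rows tested at -0.045. Large and small subunit genes are mixed along the whole range, from Mrpl42 at -0.74 to Mrpl45 at 0.31.

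Among the large subunit genes, Mrpl42, whose product has no bacterial counterpart, was furthest down. It had 394 adjusted reads with In-Cl, 449 with DPN, 417 with E2 and 397 in hypoxia, against 664 in the control. The 4 hypoxic libraries lay together and well under the control, and hypoxia was 1.67-fold below it (log2 -0.74, counting interval -0.92 to -0.57). Mrpl19, a protein of bacterial descent, had 253 adjusted reads with In-Cl, 287 with DPN, 245 with E2 and 240 in hypoxia, against 397 in the control, with the same separation (log2 -0.73, interval -0.96 to -0.50). Mrpl38 (-0.60), Mrpl50 (-0.57), Mrpl21 (-0.55), Mrps18a (-0.50) and Mrpl41 (-0.48) followed, each with the control above all 4 hypoxic libraries. Mrpl12, the flexible stalk protein that recruits translation factors, had 854 adjusted reads with In-Cl, 975 with DPN, 995 with E2 and 1022 in hypoxia, against 1369 in the control (log2 -0.42, interval -0.54 to -0.31).

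In the small subunit, Mrps34, which in mice is needed for a stable small subunit, was lowest. It had 256 adjusted reads with In-Cl, 290 with DPN, 293 with E2 and 314 in hypoxia, against 511 in the control (log2 -0.70, interval -0.90 to -0.50). Mrps25 had 332, 330, 374 and 347 adjusted reads in the same 4 hypoxic libraries, against 533 in the control (log2 -0.62, interval -0.81 to -0.42). Mrps2, of bacterial descent, was at -0.49, with 532 to 568 adjusted reads over the hypoxic libraries and 797 in the control. None of the hypoxic libraries reached the control for these 3 genes. Mrps18a (-0.50), a large subunit protein by structure, stood apart from its paralogs Mrps18b (-0.16, interval -0.29 to -0.02) and Mrps18c (-0.09, interval -0.27 to 0.09). Mrps30, the other misnamed large subunit protein, was at -0.22 and Mrps36 at -0.28.

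A handful of members went the other way. Mrpl45, which anchors the ribosome to the inner membrane, had 1102 adjusted reads with In-Cl, 1221 with DPN, 1127 with E2 and 1268 in hypoxia, against 1022 in the control, so that the control was the lowest library (log2 0.31 for hypoxia, interval 0.194 to 0.425). Mrpl32, a zinc-binding protein of bacterial descent, had 678, 658, 721 and 691 adjusted reads in the hypoxic libraries in the same order and 592 in the control (log2 0.22, interval 0.07 to 0.38). Mrps35 (0.20, interval 0.05 to 0.35) and Mrpl44 (0.17, interval -0.03 to 0.37) also had the control below all 4 hypoxic libraries. With libraries scaled to the same sum the control was below all of them for Mrpl45 and Mrpl32 only. Mrpl14 (0.23, interval 0.04 to 0.43) and Mrpl10 (0.19, interval 0.04 to 0.33), the base of the stalk that Mrpl12 sits on, were higher in hypoxia. For Mrpl14 only the hypoxia library, at 440 adjusted reads, lay above the control at 374, since In-Cl had 325, DPN 352 and E2 353. For Mrpl10 the In-Cl library had 691 adjusted reads, below the control at 726, and the other hypoxic libraries lay above it. Mrpl23 (0.12), Mrpl20 (0.11), Mrps33 (0.09), Mrps9 (0.04), Mrpl54 (0.03) and Mrps24 (0.02) lay above 0 with intervals that took in 0, and all 6 lay below 0 with libraries scaled to the same sum.

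Classes by subunit and by descent lay closer together over all members than over those among the rows tested. Over all members the median was -0.22 for the 43 large subunit genes and -0.23 for the 25 small subunit genes, with 18 and 11 of them lower by 1.2-fold. Genes with a bacterial homologue (39) had a median of -0.205 and the mitochondria-specific ones (29) of -0.245, with 15 and 14 lower by 1.2-fold. These counts take in the 8 members under the level cut, all of them lower. At 1.2-fold 21.9% of all rows tested were lower, as were 27.4% of rows under the cut with a mean of at least 100. In each split by descent here, Mrps18a and Mrps18b were counted as mitochondria-specific, although their paralog Mrps18c was counted with the bacterial homologues. Among the rows tested the medians were -0.165 for 37 large subunit genes and -0.23 for 23 small subunit genes. There the medians by descent were -0.13 over 33 genes with a bacterial homologue and -0.23 over 27 without. These are descriptions of 1 pair of libraries, and the differences between the classes were not tested.

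The pattern did not rest on the hypoxia library alone. For 46 of the 61 members among the rows tested (75.4%) the control lay above all 4 hypoxic libraries, for 4 (6.6%) it lay below all of them and for 11 (18.0%) within their range. Over all rows tested the control was above in 41.8%, below in 30.6% and within in 27.6%. Against control, the members' median was -0.41 for the In-Cl library, -0.26 for DPN and -0.27 for E2, where the medians of all rows tested were between -0.05 and -0.03. These comparisons share 1 control library, so a peculiarity of that library and an effect of hypoxia cannot be told apart. Scaling all libraries to the same sum moved the median of all rows tested in hypoxia against control to -0.19, a shift of more than 0.1, and the members' median to -0.36. That scaling moves every gene by nearly the same amount. Quantile normalization, which does not, gave -0.15 for the members and -0.025 for all rows tested.

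**Figure D2:**
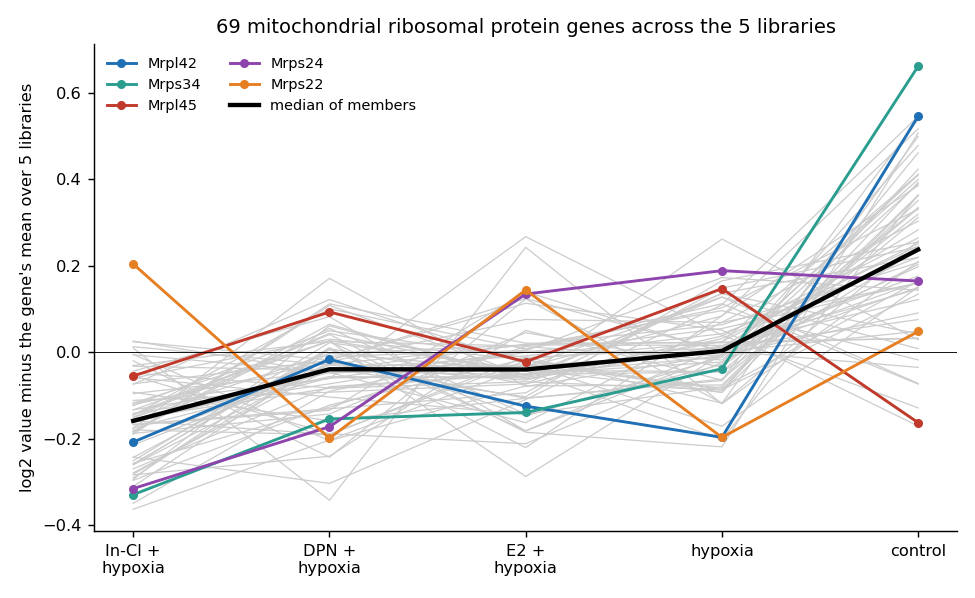
Each grey line is 1 of the 69 genes, drawn as its log2 value in each of the 5 libraries minus its own mean, with 5 genes in colour and the median of the members in black. The black line is highest in the control and lowest with In-Cl; Mrpl45 runs against it, and Mrps22 is high with In-Cl and with E2.

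Promoter windows from RefSeq (build GRCr8, 250 bases before to 50 after the start) matched 55 of the 69 genes. They were searched on both strands for 4 words: the GC-rich palindrome of the nuclear respiratory factor NRF1, with 1 letter left free; CCGGAAG, the core bound by ETS factors such as GABP; ACGTG, the core of the hypoxia response element; and CACGTG, the E-box bound by MYC, which contains the third word. Each of the first 2 factors is known as a regulator of nuclear genes for mitochondria. The NRF1 word was found in 8 of the 55 (14.5%), against 6.1% of 19005 protein-coding promoters and 12.3% of those of the rows tested. The ETS word was found in 18 (32.7%), against 11.2% and 21.7%. The hypoxia response core was found in 14 (25.5%), against 20.4% and 28.7%, and the E-box in 6 (10.9%), against 7.3% and 10.4%.

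The carriers of the NRF1 word with the highest differences were Mrpl45, Mrpl14, Mrpl32 and Mrpl44, all of them above 0 in hypoxia against control, and their windows are shown first. The window of Mrpl42, the lowest member, and that of Mrps11, which also takes in the start of Mrpl46, are shown for comparison. Letters in capitals are matches to any of the 4 words on either strand.
Mrpl45: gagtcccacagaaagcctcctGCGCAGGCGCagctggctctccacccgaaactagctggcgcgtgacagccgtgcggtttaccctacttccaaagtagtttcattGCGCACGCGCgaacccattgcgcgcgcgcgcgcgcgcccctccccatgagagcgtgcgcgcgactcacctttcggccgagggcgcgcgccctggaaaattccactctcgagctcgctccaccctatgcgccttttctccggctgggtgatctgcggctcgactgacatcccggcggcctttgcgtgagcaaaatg
Mrpl14: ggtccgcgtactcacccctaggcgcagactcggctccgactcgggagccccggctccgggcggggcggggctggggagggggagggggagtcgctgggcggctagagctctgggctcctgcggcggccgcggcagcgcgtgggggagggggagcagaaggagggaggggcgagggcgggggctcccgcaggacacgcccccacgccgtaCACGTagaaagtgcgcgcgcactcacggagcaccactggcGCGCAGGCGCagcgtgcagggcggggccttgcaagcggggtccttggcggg
Mrpl32: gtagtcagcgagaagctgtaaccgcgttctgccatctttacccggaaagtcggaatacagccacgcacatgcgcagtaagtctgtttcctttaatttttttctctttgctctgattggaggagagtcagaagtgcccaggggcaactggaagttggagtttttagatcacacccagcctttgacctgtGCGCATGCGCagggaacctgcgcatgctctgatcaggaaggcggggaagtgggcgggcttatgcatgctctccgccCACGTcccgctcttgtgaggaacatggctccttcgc
Mrpl44: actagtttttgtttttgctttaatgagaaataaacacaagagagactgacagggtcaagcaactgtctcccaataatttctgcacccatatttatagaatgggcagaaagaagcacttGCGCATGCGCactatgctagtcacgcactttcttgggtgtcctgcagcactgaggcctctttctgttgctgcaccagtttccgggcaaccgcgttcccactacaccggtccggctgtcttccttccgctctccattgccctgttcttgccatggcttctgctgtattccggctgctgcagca
Mrpl42: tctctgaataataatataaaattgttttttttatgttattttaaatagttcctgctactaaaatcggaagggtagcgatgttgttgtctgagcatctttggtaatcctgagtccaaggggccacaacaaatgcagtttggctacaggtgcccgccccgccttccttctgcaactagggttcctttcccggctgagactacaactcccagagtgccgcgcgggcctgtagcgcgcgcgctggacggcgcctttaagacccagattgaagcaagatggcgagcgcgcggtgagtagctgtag
Mrps11: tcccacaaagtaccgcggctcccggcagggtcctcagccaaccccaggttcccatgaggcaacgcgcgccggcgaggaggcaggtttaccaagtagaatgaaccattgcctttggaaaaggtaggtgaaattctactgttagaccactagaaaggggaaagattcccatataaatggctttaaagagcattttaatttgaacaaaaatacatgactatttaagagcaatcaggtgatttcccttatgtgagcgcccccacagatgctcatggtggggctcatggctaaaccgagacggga
The windows lie in GRCr8 at chr10:82804789-82805088 on the + strand (Mrpl45), chr9:22811184-22811483 on the - strand (Mrpl14), chr17:55260401-55260700 on the + strand (Mrpl32), chr9:88554800-88555099 on the + strand (Mrpl44), chr7:32028473-32028772 on the - strand (Mrpl42) and chr1:142117014-142117313 on the + strand (Mrps11).

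The 8 members with the NRF1 word had a median difference of 0.02 in hypoxia against control, and the 47 without it of -0.28. Among the rows tested, where all 8 lie, the 41 members without it had a median of -0.23. The other 4 carriers lay below 0, with Mrpl30 at -0.13, Mrps18b at -0.16, Mrps26 at -0.23 and Mrpl17 at -0.27, none of them among the lowest members. However, Mrpl19, Mrps34, Mrpl38 and Mrpl21, all among the lowest members, had no window and were not searched. Mrps35 and Mrps24, above 0, had none either. Mrpl10, Mrpl20, Mrpl23, Mrpl54, Mrps9 and Mrps33, also above 0, had a window without the NRF1 word. Over all rows tested the word made no such difference, with medians of -0.049 in 685 rows with it and -0.054 in 4860 without. Among the members in the rows tested, the medians were -0.205 with the ETS word and -0.25 without, against -0.09 and -0.04 over all rows tested. For the hypoxia response core they were -0.11 with and -0.23 without, against -0.07 and -0.05 over all rows tested. Over all 55 genes with a window, some under the level cut, the medians of In-Cl against hypoxia were -0.18 with the NRF1 word and -0.16 without. The difference between members with and without the word was not tested.

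Some members share a promoter region with a neighbour. Among the 55 genes, 17 had a protein-coding gene on the other strand whose start lay within 1000 bases upstream. The same share over all protein-coding genes was not counted. Mrps11 and Mrpl46 form such a pair with starts 234 bases apart, and both were at -0.44 in hypoxia against control. With In-Cl against hypoxia they parted, Mrps11 at -0.35 (interval -0.57 to -0.13) and Mrpl46 at 0.07 (interval -0.20 to 0.35). Mrpl47 (-0.455) faces the complex I gene Ndufb5 (-0.39). Mrps7 (-0.40) faces the trafficking adaptor gene Gga3 (-0.415), while Mrpl49 (-0.43) faces the ribosomal fusion gene Fau at 0.32 and Mrpl2 (-0.30) the kinesin light chain gene Klc4 at 0.68. In 8 pairs the partner is no member and is among the rows tested. Of these 8 pairs, 5 had member and partner on the same side of 0. The partner lay below 0 in 6 of the 8, where 56.2% of all rows tested did. No such count was made over other neighbouring genes. The library kit kept strand, but whether the counting used it is not given in the sources used here, so reads where such genes overlap cannot be assigned with certainty. In GRCr8 the spans of 14 members overlap another protein-coding gene, Mrpl43, Mrpl14, Mrpl10 and Mrpl27 among them. That share was not counted over all genes either.

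The comparison of In-Cl with hypoxia alone concerns the indazole compound that the study is named for. Nearly all members above the level cut were slightly lower with In-Cl. The median of the 61 was -0.17, with quartiles at -0.29 and -0.06, against -0.014 over all rows tested, and 56 of the 61 (91.8%) lay below 0, against 52.7% of all rows tested. At 1.2-fold 16 (26.2%) were lower and 1 (1.6%) was higher, where 9.2% and 11.1% of all rows tested were. With libraries scaled to the same sum the median was -0.10, against 0.055 over all rows tested, and 9 in place of 16 were lower. The 8 members under the cut had a median of 0.06, with 3 of them below 0, where 44.8% of the rows under the cut with a mean of at least 100 were. Members with a bacterial homologue had a median of -0.24 (33 genes, 12 lower) and mitochondria-specific ones of -0.10 (27 genes, 4 lower), a difference that was not tested. The In-Cl library was the lowest of the 5 for 42 of the 61 members (68.9%), and the same held for 29.3% of all rows tested.

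Mrps24, the counterpart of a bacterial protein at the entry of the messenger channel, had 435 adjusted reads with In-Cl and 617 in hypoxia (log2 -0.50, interval -0.685 to -0.325). It also had 480 with DPN, 595 with E2 and 607 in the control, so In-Cl and DPN stood together below the other 3 libraries. For Mrpl54 the In-Cl library had 704 adjusted reads, the DPN library 868 and the E2 library 876, against 985 in hypoxia (log2 -0.48 for In-Cl, interval -0.62 to -0.34). Mrpl27, whose bacterial relative reaches the peptidyl transferase centre, had 528, 632 and 676 adjusted reads with In-Cl, DPN and E2, against 723 in hypoxia (log2 -0.45 for In-Cl, interval -0.62 to -0.29). For both genes the In-Cl library was the lowest of the 5. Mrpl22 (-0.45), Mrps12 (-0.44), a protein of the decoding centre, and Mrpl14 (-0.44) completed the lower end, and the counting intervals of all 3 left out 0.

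Mrps22, a small subunit protein that arose in mitochondria and is mutated in inherited respiratory chain disease in humans, was the exception. Its In-Cl library had 499 adjusted reads, its DPN library 377 and its E2 library 479, against 378 in hypoxia, and the control had 448. In-Cl (log2 0.40, interval 0.20 to 0.60) and E2 (0.34, interval 0.14 to 0.54) were above hypoxia, and DPN was level with it (0.00, interval -0.22 to 0.21). It was the only member higher by 1.2-fold with In-Cl. Mrps28 (0.13, with 101 adjusted reads with In-Cl and 91.9 in hypoxia), Mrps10 (0.10) and Mrpl51 (0.10) were the next highest, with intervals that took in 0.

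The lower level with In-Cl moved with gene length. Over all rows tested the median of In-Cl against hypoxia was -0.149 for 1585 genes with a genomic length under 10 kb, -0.04 for 2288 genes of 10 to 30 kb, 0.08 for 1978 genes of 30 to 100 kb and 0.15 for 768 longer ones. The members are short genes, 39 of the 61 under 10 kb, 17 of 10 to 30 kb and 5 of 30 to 100 kb, and their medians in these classes were -0.21, -0.13 and -0.10. With In-Cl, 35 of the 39 members under 10 kb lay below 0, where 79.8% of all rows tested of that length did. For 10 to 30 kb these were 16 of 17 and 59.0%, and for 30 to 100 kb 5 of 5 and 33.7%. Set against the median of its own length class, the members' median with In-Cl was -0.08 in place of -0.17. By this centring 10 members in place of 16 were lower by 1.2-fold. In hypoxia against control the differences followed length less closely, since the class medians over all rows tested were -0.07, -0.08, -0.04 and 0.07 and those of the members, from the shortest class up, -0.205, -0.23 and -0.095; centred by class the members' median was -0.14 and 22 became 19 lower. The part of length in these differences was not tested beyond this centring, which was added after the data were seen.

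**Figure D3:**
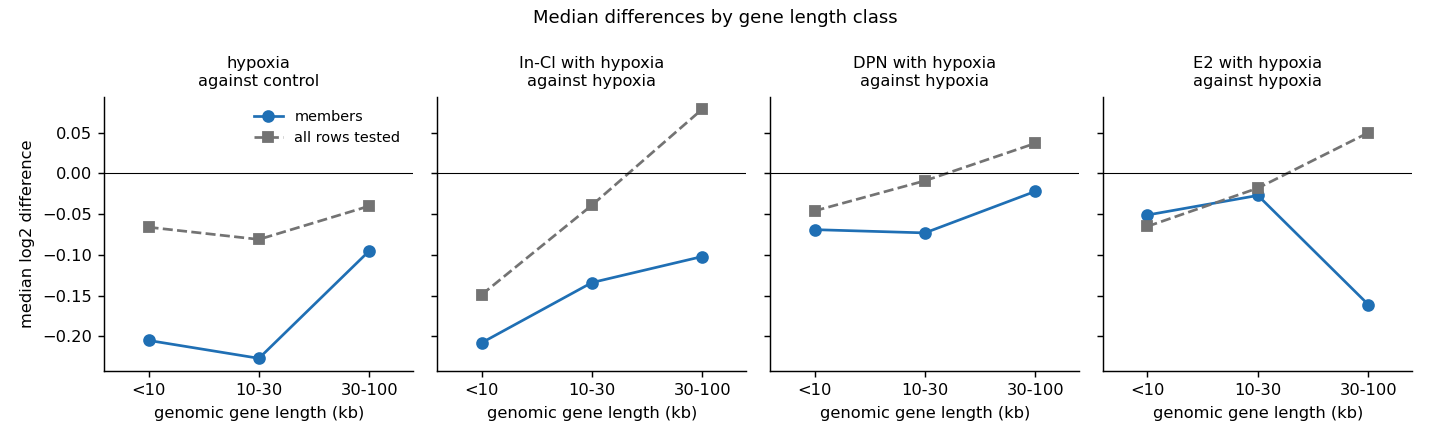
Median log2 difference by class of genomic gene length (kb) for the members (circles) and for all rows tested (squares), 1 panel for each comparison; the classes hold 39, 17 and 5 members. With In-Cl both lines climb with length, and the members lie below the squares in all 3 classes both there and in hypoxia against control.

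DPN and E2 against hypoxia ask the same of the receptor beta agonist and of estradiol, and here the members stayed close to hypoxia. With DPN the median of the 61 was -0.07, against 0.00 over all rows tested, and 43 lay below 0 (70.5%, against 49.9%). By gene length, 27 of the 39 members under 10 kb lay below 0, where 65.9% of all rows tested of that length did. For 10 to 30 kb these were 13 of 17 and 53.1%, and for 30 to 100 kb 3 of 5 and 37.3%. At 1.2-fold 5 were lower (8.2%, against 2.84% of all rows tested) and 1 was higher (1.6%, against 3.45%). The lowest with DPN were Mrps11 (-0.41, interval -0.64 to -0.18), Mrps24 (-0.36, interval -0.54 to -0.18), Mrpl14 (-0.32), Mrpl22 (-0.29) and Mrpl1 (-0.28). The highest was Mrpl51 (0.29, interval 0.11 to 0.48), with 561 adjusted reads with DPN and 458 in hypoxia, followed by Mrpl19 (0.26) and Mrpl50 (0.23). Mrpl17, with 2703 adjusted reads with DPN and 2613 in hypoxia, was level (0.05, interval -0.03 to 0.13), while with In-Cl it had 2113 (log2 -0.31, interval -0.39 to -0.22).

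With E2 the median was -0.05, against 0.00 over all rows tested, and 42 of the 61 lay below 0 (68.9%, against 49.9%). By gene length, 26 of the 39 members under 10 kb lay below 0, where 71.7% of all rows tested of that length did. For 10 to 30 kb these were 12 of 17 and 55.4%, and for 30 to 100 kb 4 of 5 and 35.5%. At 1.2-fold 3 were lower (4.9%, against 2.72%) and 1 was higher (1.6%, against 4.7%). Mrpl14 (-0.32, interval -0.53 to -0.11), Mrpl2 (-0.305, interval -0.56 to -0.055), Mrps7 (-0.28, interval -0.42 to -0.14), Mrps12 (-0.27) and Mrpl1 (-0.24) were lowest. Mrps7, a protein of the small subunit head, had 807 adjusted reads with E2, against 982 in hypoxia, and 898 with In-Cl and 1003 with DPN, so it was lowest with E2. Mrps28 (0.36, interval -0.05 to 0.79), Mrps22 (0.34), Mrps10 (0.24) and Mrpl44 (0.23, interval 0.03 to 0.43) were highest. Centred by length class, the median with E2 was 0.002, on the other side of 0.

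All 3 compound comparisons share the hypoxia library. Of the 61 members, 29 (47.5%) were below hypoxia with all 3 compounds and 3 (4.9%) above it with all 3, against 28.8% and 27.5% of all rows tested. This count was not made by gene length. Of all rows tested under 10 kb, the class of 39 of the 61 members, 79.8% lay below hypoxia with In-Cl. With DPN 65.9% of them did, and with E2 71.7%. A level particular to that 1 hypoxia library and an effect of the compounds cannot be told apart here. In-Cl against DPN, given at the same dose, uses neither the hypoxia nor the control library. There the members' median was -0.13, against -0.014 over all rows tested, and 49 of the 61 lay below 0 (80.3%, against 53.3%). At 1.2-fold 7 were lower (11.5%, against 4.25%) and Mrps22 alone was higher (1.6%, against 7.34%), with 499 adjusted reads with In-Cl and 377 with DPN. Mrpl17 (-0.355, interval -0.44 to -0.27), Mrps17 (-0.35, interval -0.52 to -0.17), Mrpl36, Mrpl54, Mrpl23 and Mrpl35 (each -0.30) and Mrps27 (-0.26) were the 7 that were lower with In-Cl than with DPN. By gene length, 34 of the 39 members under 10 kb lay below 0, where 75.9% of all rows tested of that length did. For 10 to 30 kb these were 11 of 17 and 57.7%, and for 30 to 100 kb 4 of 5 and 39.5%. Centred by length class, the median was -0.07 and 1 member in place of 7 was lower. Against the E2 library, at another dose, the In-Cl median was -0.13.

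**Figure D4:**
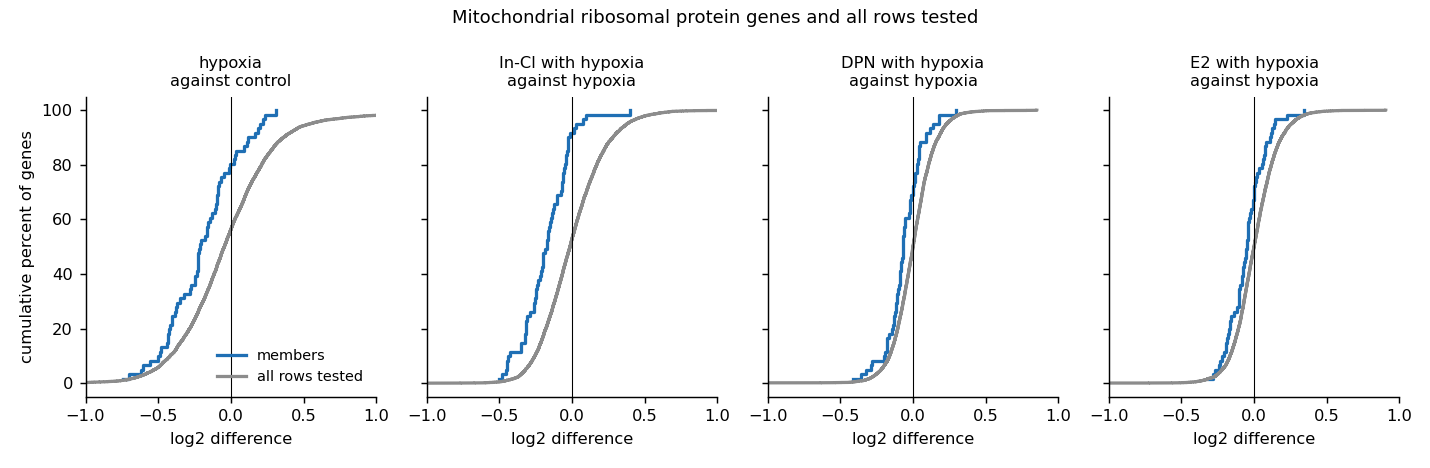
Cumulative percent of genes by log2 difference for the 61 members among the rows tested (blue) and all 6699 rows tested (grey), in 4 comparisons, with the axis limited to -1 to 1. The blue curve lies left of the grey one in hypoxia against control (medians -0.21 and -0.045) and with In-Cl (-0.17 and -0.014), and close to it with DPN and E2.

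Some members hardly moved at all among the hypoxic libraries. Mrpl43 ranged over 0.045 log2 units, with 522 adjusted reads with In-Cl, 507 with DPN, 506 with E2 and 517 in hypoxia, and 535 in the control. Mrps36 ranged over 0.05, Mrps31 over 0.06, Mrpl15 over 0.065 and Mrpl4 over 0.08. For Mrps36 the control, at 449 adjusted reads, lay above the 356 to 369 of the hypoxic libraries. The widest ranges were those of Mrps28 (0.585, the member with the fewest reads), Mrps24 (0.50), Mrpl54 (0.48), Mrpl27 (0.45) and Mrpl22 (0.45).

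The other genes of mitochondrial gene expression give the setting. Of the mitochondrial ribosome subunits that go by other names, 5 of 6 lay below 0 in hypoxia against control, where 56.2% of all rows tested did. Their median was -0.21. Gadd45gip1 (-0.52, interval -0.69 to -0.35) and Chchd1 (-0.515, interval -0.68 to -0.35) were lower and Dap3 was at 0.055 (interval -0.075 to 0.185). Assembly and rRNA modification factors had a median of -0.30 over the 8 genes among the rows tested, of 20 detected. Of the 8, 5 (62.5%) were lower by 1.2-fold, where 21.9% of all rows tested were. In that list the rRNA methyltransferase Nsun4 was at -0.595 (interval -0.79 to -0.40) in hypoxia against control. Against hypoxia it was at 0.505 (interval 0.30 to 0.71) with In-Cl, 0.48 (interval 0.27 to 0.69) with DPN and 0.52 (interval 0.31 to 0.73) with E2. For In-Cl against DPN, Nsun4 was at 0.02 (interval -0.165 to 0.21). In hypoxia against control Mterfd1 was at -0.50, while Ngrn was at 0.003. The 8 translation factors among the rows tested, of 13 detected, had a median of -0.14. The elongation factors Tsfm (-0.40) and Tufm (-0.37) were lowest. Oxa1l, which inserts new proteins into the inner membrane, was at 0.56 (interval 0.46 to 0.66).

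The mitochondrial aminoacyl-tRNA synthetases that passed the level cut had a median of -0.165 over 4, with Tars2 at -0.51. Genes of mitochondrial DNA transcription and replication had a median of -0.12 over 6, with the transcription factor Tfb2m at -0.46 and the topoisomerase Top1mt at 0.49. The regulators had a median of -0.01 over 9, in which Mxi1, a MYC antagonist, was at 2.60 (interval 2.43 to 2.79), Nrf1 at 0.18 (interval -0.03 to 0.40), the coactivator Pprc1 at -0.19 and the GABP subunit Gabpb1 at -0.47 (interval -0.67 to -0.27). The regulators' median lay above 0, at 0.03 and 0.06, with median centring and quantile normalization.

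The cytosolic ribosome serves as a comparison for the mitochondrial one. Its 78 protein genes among the rows tested had a median of 0.21 in hypoxia against control, with 76 above 0, up to Rps19 at 0.46. The 2 below 0 were Rps9 at -0.07 and Rps27l at -0.36. Rps27l is a -like copy that the list was planned to leave out. The direction of the median depended on the scaling. It was 0.25 with median centring and 0.07 with libraries scaled to the same sum. With quantile normalization it was 0.002, with 39 above 0. The members' median was below 0 under each of these scalings. Respiratory chain and ATP synthase genes had a median of -0.10 over 74, with the ATP synthase gene Atp5i at -0.545, the complex I gene Ndufs1 at -0.51 and Ndufa4l2, a known hypoxia-induced gene, at 8.99. Import genes (Timm and Tomm) had a median of -0.18 over 17, from Tomm34 at -0.46 to Tomm20 at 0.14. Both lists also lay below 0 under the other 3 scalings.

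With In-Cl against hypoxia the cytosolic ribosomal protein genes (-0.25), respiratory chain genes (-0.20) and import genes (-0.23) lay below 0 as the members did, under each scaling. The 4 tRNA synthetases (0.165), of 15 detected, and the regulators (0.07) lay above 0, likewise under each. Assembly factors were at -0.04, but at 0.03 with libraries scaled to the same sum. The synthetases were also above hypoxia with DPN (0.17) and E2 (0.12), and the regulators were at 0.01 with both. All these comparisons share the hypoxia library. In-Cl against DPN gave 0.055 for the synthetases and 0.08 for the regulators. Over all rows tested the median of In-Cl against hypoxia was -0.014. It ran from -0.149 for genes under 10 kb to 0.15 for those of 100 kb or more. The lists were not centred by gene length, and the part of length in their medians was not tested. No median here was compared with another by a test.

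**Figure D5:**
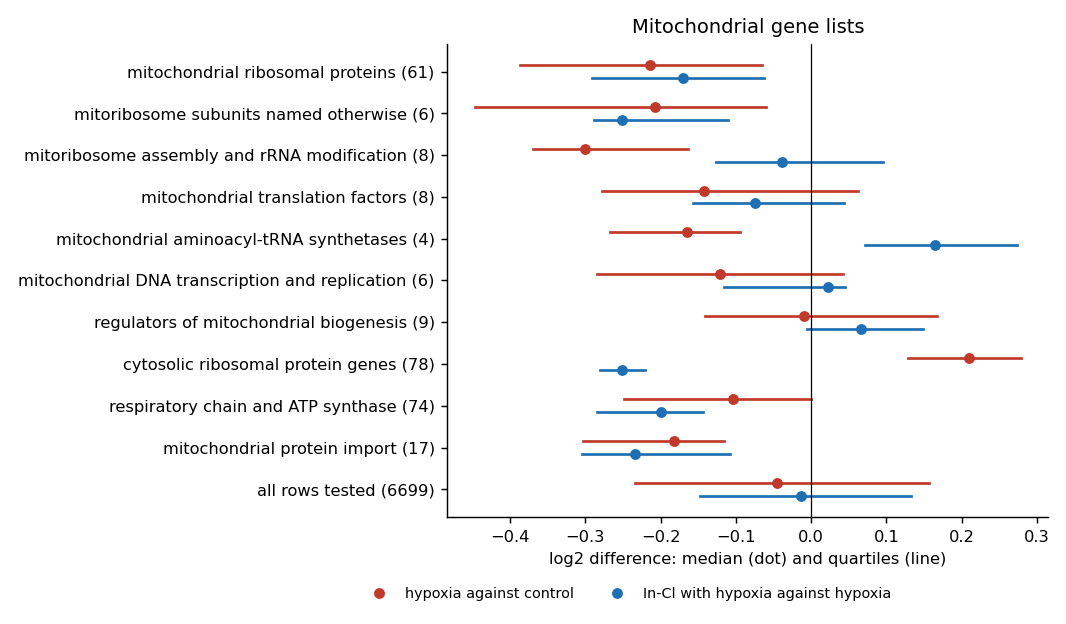
Median (dot) and quartiles (line) of the log2 difference for each gene list, with the number of genes among the rows tested in parentheses; red is hypoxia against control and blue In-Cl with hypoxia against hypoxia, which share the hypoxia library. Cytosolic ribosomal protein genes have a red dot at 0.21 and a blue one at -0.25, whereas both dots of the mitochondrial ribosomal proteins lie below 0; the red cytosolic median is 0.002 with quantile normalization.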

How the data were processed

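Expression was measured by RNA-seq in 5 libraries, 1 per condition. The authors deposited log2 values per gene symbol. The submitters' processing notes list TopHat and edgeR as tools and rn6 as the build; their versions, the counting program and its use of strand were not stated. The linear value is 2 to the deposited log2 value, minus 1, and the low linear values come in steps that give the worth of 1 read, 0.832 in the control to 1.10 with E2 (rows up to 2.5 reads; 90.0% to 100% within 0.2 read of a whole number). Approximate reads are linear values over this step, 20174411 to 24836162 per library. Counting intervals are 95% Clopper-Pearson intervals of the share of reads (scipy 1.17.1); reads are not independent molecules. With 1 library per condition there is no replicate error and no p-value. The planned classes by protein length and levels per length were not run, since no protein table was used; genomic length (RefSeq, GRCr8, 98.8% of rows tested) was added instead. Of the 69 members, 24 have 1 or more similarly named copies in RefSeq, up to 9 for Mrpl30, so their counts are uncertain. Members, lists and the rule for named genes (the 10 highest and 10 lowest differences in hypoxia against control, the 5 at each end for each compound and for the range over hypoxic libraries, some paralogs always, with a mean of at least 100, and the 2 at each end of other lists) were chosen with earlier results of these data known. Reads simulated around the control library served to check the worth of 1 read, the coverage of the counting intervals and estimates of set differences. The simulation held counting error only, with no other variation between libraries. The member counts, lists, motifs and length classes were not tested by it.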

Additional observations from a re-analysis of the deposited data

How the results depend on the processing

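No paired analysis was possible because each condition has 1 library. Medians below are over the members among the rows tested, and counts are of members at least 1.2-fold higher or lower. Hypoxia against control had a median of -0.21 with 1 higher and 22 lower. The median was -0.358 (0 higher, 38 lower) with libraries scaled to the same sum, -0.413 (0, 40) with In-Cl in place of hypoxia, -0.259 (0 higher) with DPN, -0.274 (2 higher) with E2 and -0.260 for the mean of the 4 hypoxic libraries. The count higher was 2 with median centring, 3 with quantile normalization and 3 when centred by gene length. The control was below all hypoxic libraries for 2 members in place of 4 at the same sum. For In-Cl against hypoxia (1 higher, 16 lower) the median was -0.101 with 9 lower at the same sum and -0.083 with 10 lower when centred by gene length. DPN against hypoxia (1, 5) had 3 lower at the same sum. E2 against hypoxia (1, 3) had a median of -0.003 at the same sum (2 higher, 1 lower) and of 0.002 (2 higher) when centred by gene length, a change of sign, and 2 higher over all detected rows. In-Cl against DPN (1, 7) had 2 higher over all detected rows and 1 lower when centred by gene length. At 1.1-fold the counts higher and lower were 6 and 37 for hypoxia against control, 37 lower with In-Cl, 3 and 12 with DPN, 4 and 15 with E2 and 30 lower for In-Cl against DPN. At 1.5-fold 4 members were lower in hypoxia against control and 0 were higher, and 0 passed in the other comparisons. At 2-fold 0 passed in any. The shares of all rows tested at 1.1-fold, 1.5-fold and 2-fold are not given here, so these counts have no background. A pseudocount of 10, summed rows and values under 3 reads raised changed none of these medians beyond their spread over genes. The causes were not tested. With no replicates, no library could be left out. Depth limits single members, whose intervals in hypoxia against control span 0.15 (Mrpl17) to 0.79 (Mrps28) log2 units.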
